A study of Mus musculus with 9 samples.

Results

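MicroRNA (miRNA) precursor genes were followed in total RNA of the mouse hippocampus across 3 groups of 3 libraries. Of 54532 genes listed, 2207 carried the biotype miRNA, and 98 of these had a mean of at least 1 FPKM over the 9 libraries. FPKM counts fragments relative to how long a gene is and how deeply a library was sequenced. The 98 genes were chosen with the same values that are described here, so their levels and the counts of genes that moved are a description of the chosen set. Of the other miRNA genes, 1714 had no read in any library and 395 had a read but lay below the rule. Just inside it were Gm27527 in Hfm1 at a mean of 1.00 FPKM, Mir6928 in Atp6v0a1 at 1.02 FPKM and Mir1968 in Grtp1 at 1.03 FPKM. Just outside it were Mir7078 in Cmip at 0.997 FPKM, Mir7682 in Trmt1l at 0.987 FPKM and the intergenic Gm22955 at 0.979 FPKM.

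The labels describe male C57BL/6 mice aged 6 to 8 weeks at purchase, though the strain labels of the Bet+HMD samples differ from one another, and the study's text calls the mice female. The Con group was kept on standard chow. The HMD group ate chow high in methionine over 8 weeks. The Bet+HMD group ate that chow over 8 weeks as well, and its drinking water then held betaine, a methyl donor, at 2.5% w/v over 2 weeks. No library was labelled as the diet followed by 2 weeks without betaine, and no control library was sequenced anew with the Bet+HMD libraries. Batch, the added time and betaine therefore cannot be told apart in either comparison with Bet+HMD. The libraries held 16031464 to 18291952 reads on genes. All 8 hippocampal marker genes were found, with a summed level of 185 to 215 FPKM in Con, 158 to 191 in HMD and 178 to 188 in Bet+HMD. The sum of 8 thalamic markers was 23.3 to 33.5 FPKM in Con, 46.4 to 115 in HMD and 38.1 to 38.6 in Bet+HMD, and that of 5 blood genes 99.8 to 148, 149 to 233 and 72.2 to 122 FPKM. The part of either in the results was not tested.

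A miRNA gene is transcribed as a long primary transcript, often from an intron of another gene, and the nuclear enzyme Drosha with its partner Dgcr8 cuts a hairpin from it. The hairpin is exported to the cytoplasm, where Dicer1 cuts out a short duplex. One strand is loaded onto an Argonaute protein and pairs through its seed, bases 2 to 8, with messenger RNAs that are then silenced. Mature miRNAs were not measured in these libraries of rRNA-depleted long RNA. A read on a miRNA gene here came from a fragment over the hairpin locus, and the primary transcript, an unspliced host RNA and a freed hairpin cannot be told apart.

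The list of RefSeq miRNAs used here held a hairpin on GRCm38.p6 for 60 of the 98 genes, matched by symbol, with 105 mature sequences. The sequences shown are those of genes that carried most of the reads, of brain miRNAs and of the pairs that share a seed. The seed is in capitals, and each line is read 5′ to 3′.

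miR-5125 of Mir5125: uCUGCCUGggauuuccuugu
miR-186-5p of Mir186: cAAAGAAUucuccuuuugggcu
miR-421-5p of Mir421: cUCAUUAAauguuuguugaau
miR-128-3p of Mir128-1: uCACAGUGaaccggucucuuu
miR-9-5p of Mir9-3: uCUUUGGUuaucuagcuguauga
miR-378b of Mir378b: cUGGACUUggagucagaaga
miR-1970 of Mir1970: uGUGUCACuggggauaggcuuug
miR-132-3p of Mir132: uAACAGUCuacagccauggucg
miR-212-3p of Mir212: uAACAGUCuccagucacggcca
miR-453 of Mir453: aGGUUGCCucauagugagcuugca
miR-496a-5p of Mir496a: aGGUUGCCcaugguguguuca

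Among the 60 matched genes, only 2 seeds were shared between different genes. Mature sequences of the other 38 genes were not at hand, so their seeds were not compared. AACAGUC was common to miR-132-3p and miR-212-3p, whose genes lie close together in one host, and GGUUGCC was common to miR-453 and miR-496a-5p, whose genes both lie in Mirg.

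The remaining 38 genes had no hairpin under their symbol in the list used, and 25 of them carry Gm names given to predicted loci. A gene missing from that list may still have a hairpin in RefSeq. The predicted fold energy of the whole gene, computed from the GENCODE M21 sequence, had a median of -41.9 kcal/mol per 100 bases in the 73 Mir genes and -34.7 in the 25 Gm genes. Their median GC contents were 51.5% and 52.5%. Gm23935 (chr16:11144125-11144181, + strand, antisense within Zc3h7a) and Gm24270 (chr9:56223715-56223771, - strand, in an intron of Peak1) had one identical sequence of 57 bases. It is shown because the gene with the most reads in the set cannot be separated from its copies by sequence. The RNA that gave the reads of Gm23935 was not identified.

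Gm23935 and Gm24270: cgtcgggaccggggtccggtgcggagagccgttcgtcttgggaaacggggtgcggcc

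Gm24245, which had no read in any library, carried the same 57 bases, and Gm24187 differed little from them (98.2% identity). In all, 8 of the 98 genes had a near-identical other gene (at least 95% identity over 90% of the length), so the division of reads among those loci is uncertain. The others were Gm23726, which matched transcripts of 110 other genes, Mir124a-3, Mir344-2, Mir684-1 and Mir5112.

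Most of the 98 genes rested on few reads. Gene lengths ran from 54 to 139 bases with a median of 82.5, and at that length 1 read was worth 0.670 to 0.791 FPKM. The median gene had a mean of 2.29 FPKM and 3.39 reads per library. A mean of 10 reads or more was reached by 12 genes over all libraries and by 40 genes in at least 1 group, while 64 genes had a mean under 5 reads. No library of the group exceeded 3 reads, a floor that covers counting error only, for 59 genes in Con, 55 in HMD and 5 in Bet+HMD.

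More miRNA genes had a read in Bet+HMD, as did more genes of all kinds. At least 1 read was found on 119, 60 and 116 of the 2207 miRNA genes in the Con libraries, on 87, 77 and 86 in HMD, and on 247, 236 and 273 in Bet+HMD. Over all genes, 20816 to 23272 had a read in the Con and HMD libraries and 25315 to 25663 in those of Bet+HMD, and the part of this in the miRNA values was not tested. The 98 genes together held 9637, 1834 and 2580 reads in Con, 3827, 3031 and 3789 in HMD, and 6714, 6603 and 5220 in Bet+HMD. Gm23935 alone supplied 9249, 1645 and 2358 of the reads in Con, 3551, 2740 and 3466 in HMD, and 5181, 5085 and 3788 in Bet+HMD. This 1 locus thus set the total in every library, and Con replicate 1 was the highest of the 9. Without it the totals were 388, 189 and 222 reads in Con, 276, 291 and 323 in HMD, and 1533, 1518 and 1432 in Bet+HMD. The Bet+HMD libraries lay above all others in this total and did not overlap them. In bulk tissue, more cells of one type and more RNA per cell cannot be told apart.

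**Figure D1:**
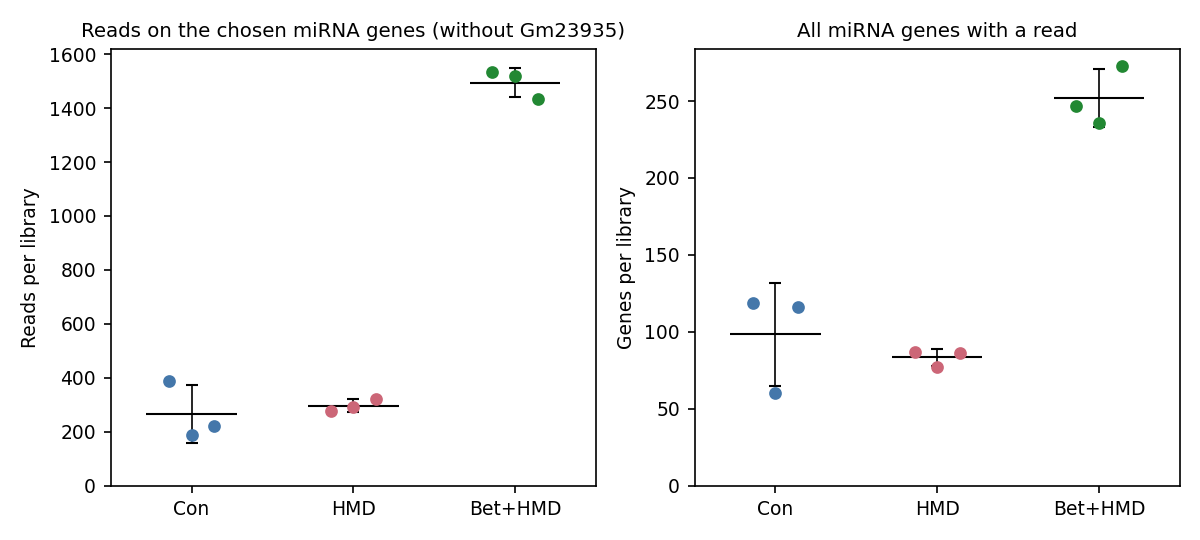
Reads on the chosen miRNA genes other than Gm23935 (left, reads per library) and the number of all 2207 miRNA genes with a read (right, genes per library) in Con, HMD and Bet+HMD. Points are the 3 libraries of a group, the line and bar are their mean and SD. The Bet+HMD libraries hold 1432 to 1533 reads and 236 to 273 genes, above the 189 to 388 reads and 60 to 119 genes of the other 6 libraries.

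The rule itself favoured genes that were high in Bet+HMD. Of the 98 genes, 95 had a group mean of at least 1 FPKM in Bet+HMD, 49 in HMD, 44 in Con, and 33 reached it in Bet+HMD alone. The highest group mean was in Bet+HMD for 87 genes, in HMD for 9 and in Con for 2. A gene that passed only through Bet+HMD had to be higher there. The same rule applied to the Con and HMD libraries alone would have kept 57 miRNA genes, and applied to the Bet+HMD libraries alone it would have kept 167.

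The comparison of Bet+HMD with HMD asks what differed when betaine followed the diet. Mir5125, Gm24270, Mir186, Mir421 and Mir128-1 were all higher in Bet+HMD, and Gm24993 was lower. Of the 98 genes 97 could be tested (Mir6941 was too low), with limma on log2(FPKM + 1) and Benjamini-Hochberg adjustment over all 13672 genes tested. An adjusted p under 0.05 was reached by 64, of which 62 were higher and 2 lower in Bet+HMD. Over all genes 48.3% were called, 22.8% higher and 25.5% lower. The 3 libraries of each group did not overlap at 57 of the tested miRNA genes in the upward direction and at 3 in the downward direction, where 28.3% and 31.8% of all tested genes did so. The 3 were Gm24993, Mir744 and Mir132, named after their values were seen. Mir744 and Mir132 had few reads, and those of Mir132 met between the groups before scaling. The median difference was 1.80 on the log2(FPKM + 1) scale over the tested miRNA genes, 1.58 with 22 genes without a read in HMD, those whose lower bound exceeded 1, set at that bound, and -0.03 over all genes. Because of how the genes were chosen, nothing was read from these shares. Of the 52 tested among the 57 miRNA genes chosen on Con and HMD alone, 27 were called higher and 2 lower, with a median of 1.59. The rest fell below a mean of 1 FPKM over the HMD and Bet+HMD libraries, so Bet+HMD values still entered this choice. The 97 tested genes showed a median of 3.00 in TPM, the same values rescaled to one sum in every library, where the median of all genes moved to 0.16 and 64 were called higher and 2 lower. The median was 3.59 with a pseudocount of 0.1 and 2.59 under voom, so its size depended on the scale.

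Other short genes moved the same way. Of 237 tested genes of other biotypes under 200 bases, 43.0% were called higher and 5.91% lower in Bet+HMD, with a median difference of 1.20 in log2(FPKM + 1). Protein-coding genes had a median of -0.06. The part of gene length or of the kind of RNA captured in the differences of the miRNA genes was not tested.

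Among the genes with the most reads, Mir5125 (chr17:23823291-23823369, + strand) lies in an intron of Srrm2, which encodes a scaffold protein of nuclear splicing speckles. It had 72, 25 and 11 reads in Con, 65, 32 and 88 in HMD, and 310, 378 and 319 in Bet+HMD. Every Bet+HMD library was over 3 times the highest of the others. Its level was 46.6 ± 19.8 FPKM in the HMD libraries and 243 ± 24.2 FPKM in those of Bet+HMD (SD, n = 3), a log2 difference of 2.45 (SE 0.29, limma adjusted p 0.00065). Srrm2 itself differed by 1.92 (limma adjusted p 2e-05).

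Mir186 (chr3:157544279-157544349, + strand) lies in an intron of Zranb2, a splicing factor gene. It had 33, 13 and 13 reads in Con, 15, 4 and 14 in HMD, and 97, 63 and 95 in Bet+HMD, without overlap. The log2 difference from HMD was 2.89 (SE 0.40, limma adjusted p 0.00117), and that of Zranb2 was 0.76. Mir421 (chrX:103572921-103572996, - strand) lies in Ftx, a long noncoding RNA gene of the X-inactivation centre. It had 19, 0 and 3 reads in Con, 4, 4 and 16 in HMD, and 44, 38 and 74 in Bet+HMD. The groups did not overlap, although 1 library in each of Con and HMD stood well above its replicates. The log2 difference from HMD was 2.63 (SE 0.47, limma adjusted p 0.00362) and that of Ftx was 2.10.

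Gm24270, the copy of Gm23935 within Peak1, had 6, 2 and 9 reads in Con, 11, 20 and 5 in HMD, and 137, 143 and 76 in Bet+HMD. Its log2 difference from HMD was 3.25 (SE 0.47, limma adjusted p 0.00148). Peak1, a pseudokinase gene, differed by 0.12, which did not pass the test. Gm23935, with the identical sequence, differed by 0.44 (SE 0.14, limma adjusted p 0.0342). The division of reads between these identical 57 bases is uncertain, so neither difference can be assigned to its locus with certainty. Gm27353 (chr9:73005201-73005322, + strand), in an intron of the autophagy receptor gene Ccpg1, had 6, 8 and 5 reads in Con, 8, 4 and 0 in HMD, and 77, 80 and 52 in Bet+HMD. Its log2 difference was 3.75 (SE 0.52, limma adjusted p 0.00124). Ccpg1 had under 1 FPKM and was not tested. Another gene, Gm44503, also contains Gm27353 on the same strand.

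**Figure D2:**
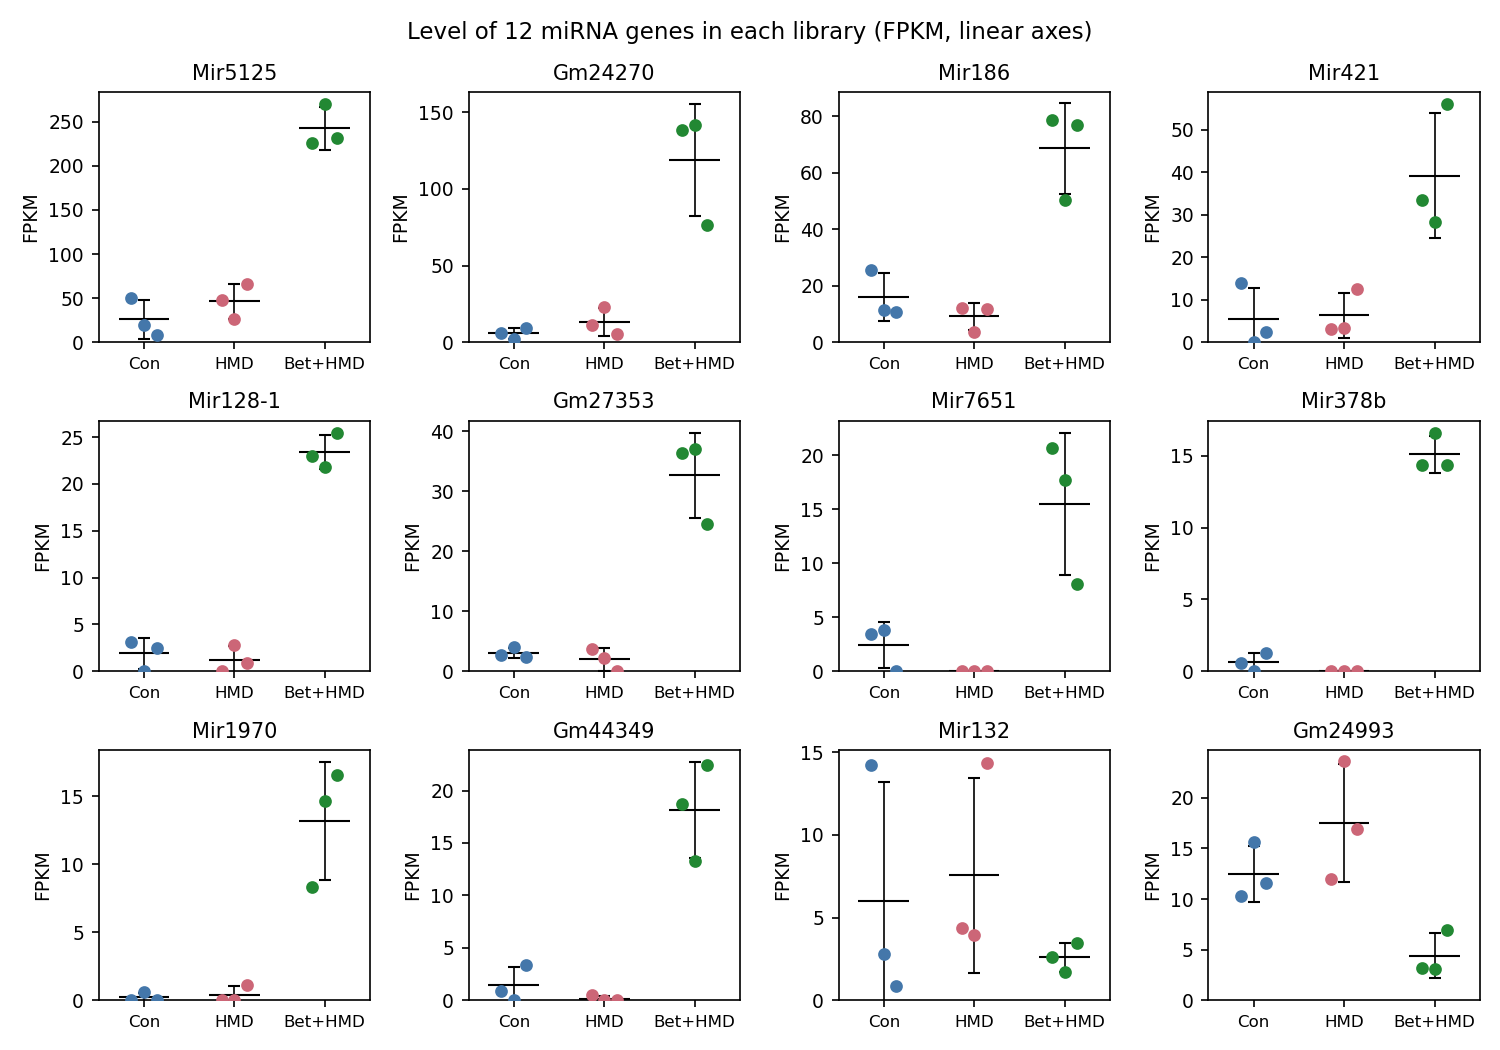
FPKM of 12 miRNA genes in each library (one panel per gene, linear axes from 0). Points are the 3 libraries of Con, HMD and Bet+HMD, and the line and bar are the mean and SD. In 10 panels the Bet+HMD libraries lie above the other 6 libraries, and in those of Mir132 and Gm24993 the Bet+HMD mean is the lowest of the 3 groups.

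The largest differences from HMD were at genes with almost no reads in HMD. Gm44349 (chr11:69980692-69980814, + strand) lies antisense in Elp5, a gene of the Elongator complex, and had 2, 0 and 7 reads in Con, 1, 0 and 0 in HMD, and 40, 29 and 48 in Bet+HMD. Its log2 difference was 4.05 (SE 0.22, limma adjusted p 4.22e-05), and the ratio of reads was 117 with a 95% counting interval of 20.7 to 4676. Elp5, on the other strand, fell by 0.58.

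Mir378b (chr11:88352773-88352864, + strand), antisense in the RNA-binding protein gene Msi2, had 1, 0 and 2 reads in Con, none in HMD, and 23, 27 and 23 in Bet+HMD. Against a floor of 3 reads per library it was at least 7.64-fold higher than in HMD. Mir7651 (chr11:6401630-6401693, + strand), in an intron of the transcriptional co-regulator gene Zmiz2, had 4, 4 and 0 reads in Con, none in HMD, and 23, 20 and 9 in Bet+HMD. It was at least 5.44-fold higher than in HMD, and Zmiz2 differed by 0.07, which did not pass the test. Mir7240 (chr8:70798135-70798192, + strand), antisense in the kinase gene Mast3, had 0, 0 and 6 reads in Con, none in HMD, and 13, 16 and 18 in Bet+HMD, at least 4.92-fold higher than in HMD. All 3 genes passed the test (limma adjusted p 2.01e-06 for Mir378b, 0.000119 for Mir7651 and 9.72e-06 for Mir7240). In all, 22 genes without a read in HMD had such a bound above 1, from 1.37-fold to 7.64-fold.

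Of the tested genes 2 were called lower. Gm24993 (chrX:104076971-104077061, + strand) is intergenic and had 17, 23 and 18 reads in Con, 19, 33 and 26 in HMD, and 5, 5 and 11 in Bet+HMD. The Bet+HMD libraries were the lowest 3 of the 9. The level was 17.5 ± 5.85 FPKM in the HMD libraries and 4.40 ± 2.20 FPKM in those of Bet+HMD (SD, n = 3), and the gene fell by 1.80 on the log2 scale (SE 0.31, limma adjusted p 0.00315). Mir744, in an intron of the kinase gene Map2k4, had 2, 2 and 0 reads in Con, 3, 4 and 3 in HMD, and 1, 1 and 0 in Bet+HMD. It fell by 1.16 (limma adjusted p 0.00466), and Map2k4 fell by 0.43. Another intergenic gene, Gm44483, had 21, 15 and 5 reads in Con, 19, 36 and 12 in HMD, and 12, 7 and 16 in Bet+HMD, and its groups overlapped (limma adjusted p 0.13).

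The position of a gene was taken from the coordinates. Of the 98 genes, 61 lay in an intron and 5 overlapped an exon of a gene on the same strand, 18 lay within a gene on the opposite strand alone, and 14 were intergenic. No source gives the strand setting of the counting, so an antisense miRNA gene and the gene around it cannot be told apart by their reads alone. The intronic genes held 193, 184 and 240 reads in HMD against 1179, 1200 and 1102 in Bet+HMD, and the intergenic genes 60, 92 and 63 in HMD and 110, 92 and 93 in Bet+HMD. In Con they held 291, 98 and 146 reads and 70, 52 and 46 reads. The intergenic genes thus overlapped between HMD and Bet+HMD in this total, and the intronic ones did not. Much of the intergenic total in HMD came from Gm24993 and Gm44483. Gm24993 had 19, 33 and 26 reads in HMD and 5, 5 and 11 in Bet+HMD. For Gm44483 these were 19, 36 and 12, then 12, 7 and 16. Of the 14 intergenic genes, 11 were higher in Bet+HMD than in HMD and 3 lower. In Bet+HMD against HMD the median log2 difference was 1.79 for 60 intronic genes (38 called higher, 1 lower), 1.90 for 5 exonic genes (3 higher), 2.35 for 18 antisense genes (14 higher) and 1.25 for 14 intergenic genes (7 higher, 1 lower). Over the whole set 63.9% of the tested genes were called higher, and over all genes 22.8%. The difference between positions was not tested.

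**Figure D3:**
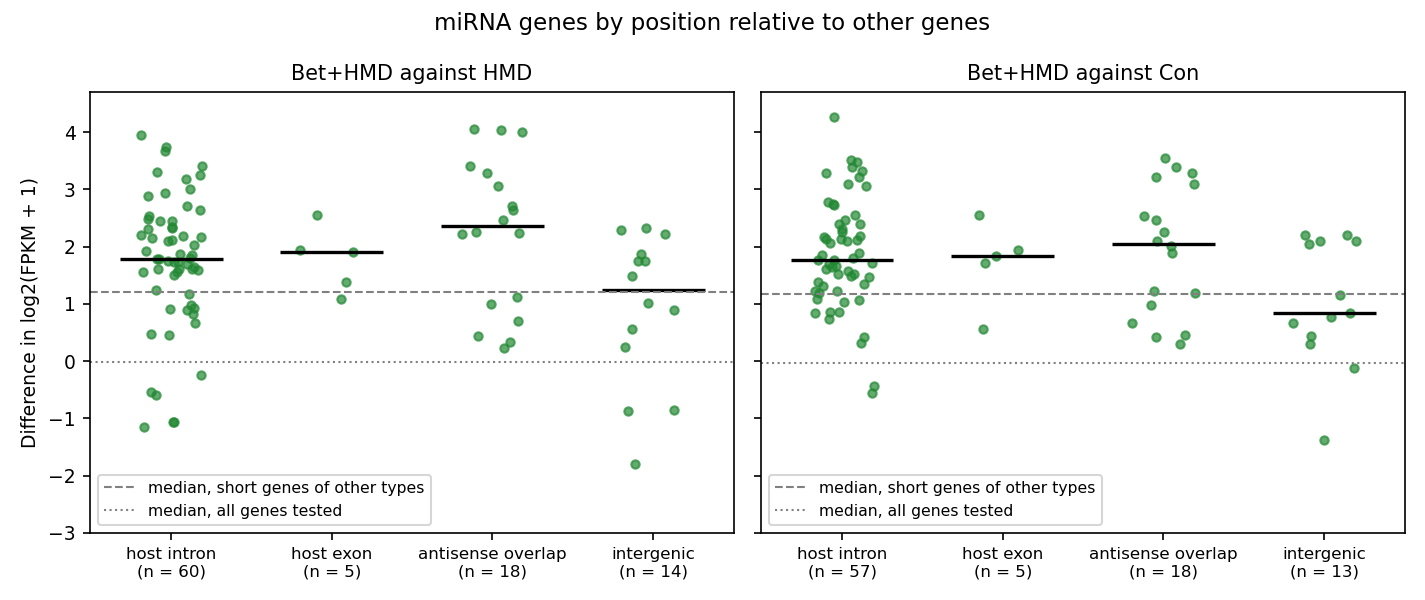
Difference in log2(FPKM + 1) of each tested miRNA gene by its position (horizontal axis), in Bet+HMD against HMD (left) and against Con (right). Points are genes, black lines are medians, and grey lines mark the medians of other short genes (dashed) and of all genes tested (dotted). In the left panel the medians are 1.79 in introns, 1.90 in exons, 2.35 antisense and 1.25 between genes, against 1.20 for other short genes and -0.03 for all genes.

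Host genes on the same strand mostly showed smaller differences than the miRNA genes they contain. The 66 miRNA genes with such a host lay in 59 hosts, and the host was protein-coding for 51 of them. Of 52 hosts tested in Bet+HMD against HMD, 55.8% were called higher and 13.5% lower, with a median difference of 0.40. In the 58 pairs with both values the miRNA gene differed by a median of 1.83 and its host by 0.47. The miRNA gene lay above its host in 50 pairs and below it in 8. Among the 37 pairs with the miRNA gene called higher, the host was called higher in 24, lower in 2 and neither in 11. FPKM of a short gene is coarse, and the hosts entered these pairs through genes chosen on the same libraries, so no test was made.

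**Figure D4:**
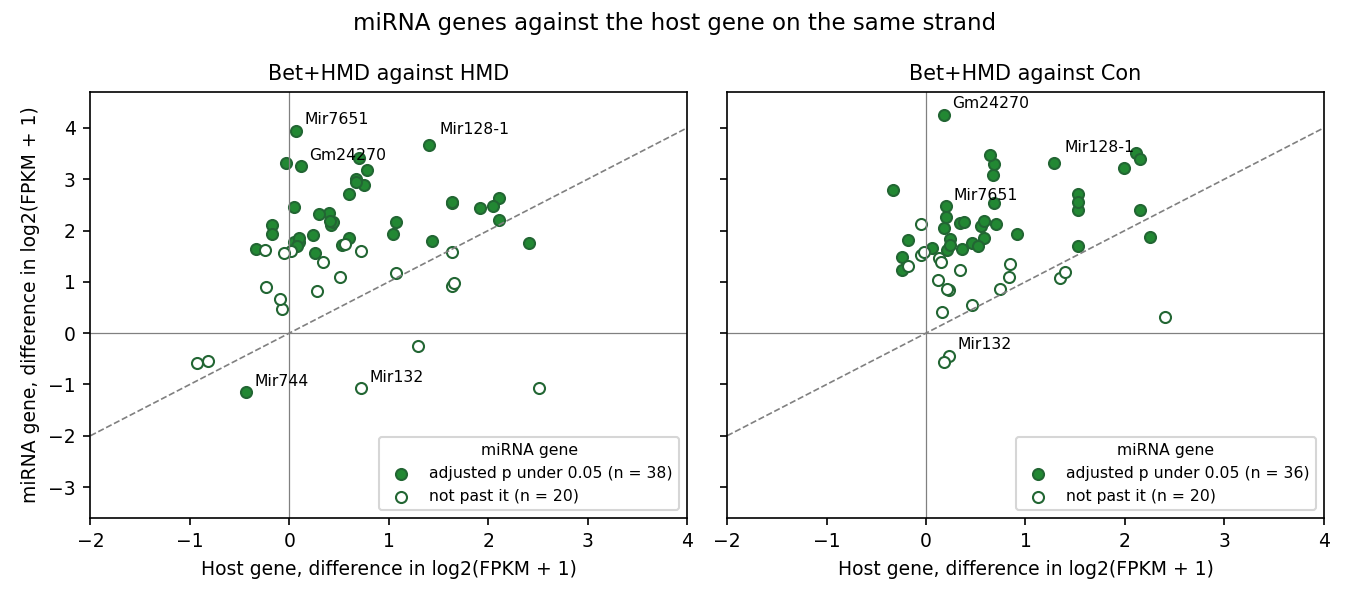
Difference in log2(FPKM + 1) of the miRNA gene (vertical axis) against that of its same-strand host gene (horizontal axis), in Bet+HMD against HMD (left, 58 pairs) and against Con (right, 56 pairs). Filled points are miRNA genes with an adjusted p under 0.05, and the dashed line marks equal differences. In both panels 50 pairs lie above the line, among them Gm24270 and Mir7651, and Mir132 lies below it.

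Brain miRNA families were read from a list of 77 genes, of which 12 were in the set, 30 had a read and 47 had none. Mir128-1 (chr1:128202361-128202430, + strand), a regulator of neuronal excitability, lies in an intron of R3hdm1. It had 4, 0 and 3 reads in Con, 0, 3 and 1 in HMD, and 28, 27 and 31 in Bet+HMD. The level was 1.21 ± 1.43 FPKM in the HMD libraries and 23.4 ± 1.85 FPKM in those of Bet+HMD (SD, n = 3), with a log2 difference of 3.67 (SE 0.42, limma adjusted p 0.000557). R3hdm1 differed by 1.40 and was called higher as well.

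Mir9-3 (chr7:79505264-79505353, + strand), a gene of the miR-9 family of neural progenitors, lies in its noncoding host Mir9-3hg. It had 0, 1 and 1 reads in Con, none in HMD, and 5, 5 and 7 in Bet+HMD (log2 difference 2.19). Mir135a-2, in the noncoding gene Rmst, had reads in Bet+HMD alone, with 4, 10 and 8, and was at least 2.30-fold higher than in HMD. Mir219a-2, of the family known for oligodendrocyte maturation, had 0, 0 and 1 reads in Con, none in HMD, and 3, 18 and 5 in Bet+HMD. Each of these 3 genes had fewer than 30 reads over all libraries and its highest levels in Bet+HMD, which the choice of genes itself used, so these values are a description.

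Mir99a, Mir99b and Mir26a-1 were also called higher than in HMD, with log2 differences of 1.25, 1.75 and 1.56. Mir7-1, in Hnrnpk, had 1, 4 and 7 reads in Con, 15, 4 and 1 in HMD, and 14, 10 and 9 in Bet+HMD, and the spread within HMD covered the Bet+HMD values (limma adjusted p 0.228). Mir103-2, in the pantothenate kinase gene Pank2, had 2, 0 and 0 reads in Con, 0, 0 and 7 in HMD, and 12, 4 and 6 in Bet+HMD, with overlap to HMD (limma adjusted p 0.0946). Mir124a-3, a copy of the neuronal miR-124, had 1, 0 and 0 reads in Con, 2, 0 and 6 in HMD, and 0, 0 and 2 in Bet+HMD, too few to order the groups. Of the 12 brain genes, 7 were called higher than in HMD, beside 63.9% of all the tested miRNA genes of the set and 22.8% of all genes tested, so nothing particular to these families was read from the count.

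Mir132 and Mir212 are induced together by neuronal activity and share the seed AACAGUC. They lie within 360 bases of each other in an intron of the noncoding gene 1700016P03Rik (Mir212 at chr11:75173388-75173478 and Mir132 at chr11:75173682-75173747, both + strand). Mir132 had 17, 3 and 1 reads in Con, 5, 4 and 16 in HMD, and 3, 2 and 4 in Bet+HMD. Its reads met at 4 in HMD and Bet+HMD, which were apart in FPKM alone. Mir212 had 13, 4 and 2 reads in Con, 1, 0 and 13 in HMD, and 18, 12 and 5 in Bet+HMD. Con replicate 1 and HMD replicate 3 were the highest of their groups for both genes. Against HMD, the log2 difference was -1.07 for Mir132 (SE 0.43, limma adjusted p 0.074) and 1.61 for Mir212 (SE 0.81, limma adjusted p 0.14), and neither passed the test. The host differed by 0.72, which did not pass it either.

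Other clusters are given by their summed reads. Mir453, Mir496a, Mir541 and Mir3072 lie in Mirg, a noncoding gene of the imprinted Dlk1-Dio3 region on chromosome 12, and together had 2, 1 and 4 reads in Con, 7, 9 and 7 in HMD, and 29, 33 and 41 in Bet+HMD. Mir541 and Mir3072 were called higher than in HMD, and Mir453 and Mir496a, which share the seed GGUUGCC, were not (limma adjusted p 0.154 and 0.0873). Mirg itself differed by 1.64. Mir341 and Mir1188, in the neighbouring noncoding gene Rian, together had 11, 1 and 0 reads in Con, 2, 5 and 0 in HMD, and 51, 40 and 39 in Bet+HMD. Both were called higher (log2 differences 3.01 and 2.94), while Rian differed by 0.67. Mir421 and Mir374b in Ftx together had 19, 0 and 4 reads in Con, 4, 6 and 16 in HMD, and 58, 41 and 87 in Bet+HMD.

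Mir7220 and Mir6982 lie in introns of Camk2a, the kinase gene central to synaptic plasticity in the hippocampus. Mir7220 had 22, 3 and 9 reads in Con, 8, 8 and 5 in HMD, and 28, 32 and 23 in Bet+HMD, and Mir6982 had 0, 1 and 7, then 0, 6 and 0, then 21, 4 and 15 reads. Both were called higher than in HMD, with log2 differences of 1.77 (SE 0.20) and 2.45 (SE 0.84). Camk2a differed by 0.04 (limma adjusted p 0.7), so the host did not move in step with either.

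The comparison of Bet+HMD with Con asks how the treated mice stood against mice never given the diet. Among 93 miRNA genes tested, 55 were called higher and 1 lower (Gm24993), where 39.7% of all 13643 genes were called, 19.4% higher and 20.4% lower. The groups did not overlap at 56 of them in the upward and 1 in the downward direction, with shares of 26.1% and 29% over all genes. The median log2 difference was 1.81 over the tested miRNA genes, 1.58 with 13 genes at 0 in Con, those whose lower bound exceeded 1, set at that bound, and -0.04 over all genes. The Bet+HMD libraries are shared with the comparison against HMD, so the 46 genes called in both are no second line of evidence. Of the 48 tested among the 57 miRNA genes chosen on Con and HMD alone, 22 were called higher and 1 lower. The rest fell below a mean of 1 FPKM over the Con and Bet+HMD libraries, so Bet+HMD values again entered this choice.

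The largest difference from Con was at Gm24270, which rose by 4.26 (SE 0.44, limma adjusted p 0.000779), from 5.74 ± 3.53 to 119 ± 36.7 FPKM (SD, n = 3). How reads were divided between Gm24270 and its identical copies is uncertain. Mir5125 rose by 3.51 (SE 0.56, limma adjusted p 0.00344) and Mir421 by 3.40 (SE 0.89, limma adjusted p 0.0224). The call of Mir421 was lost when any 1 of the 3 Bet+HMD libraries was left out, with adjusted p of 0.0612, 0.0537 and 0.0776. Mir1970 (chrX:135786114-135786217, - strand), antisense in Gprasp1, a sorting factor gene for G-protein-coupled receptors, had 0, 1 and 0 reads in Con, 0, 0 and 2 in HMD, and 15, 27 and 30 in Bet+HMD. Its ratio of reads to Con was 74.6 with a 95% counting interval of 13.0 to 2987. Gprasp1 in Bet+HMD differed from Con by 0.16 and from HMD by 0.02. Gm25361, in an intron of the phosphatase subunit gene Ankrd52, had no read in Con, 0, 1 and 0 in HMD, and 11, 17 and 13 in Bet+HMD, at least 4.45-fold higher than in Con. Gm24993 fell by 1.37 (SE 0.28, limma adjusted p 0.00879).

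Some genes passed the test against 1 group alone. Mir1898, in an intron of Zfr, had 8, 7 and 10 reads in Con, 1, 19 and 11 in HMD, and 28, 17 and 37 in Bet+HMD, with limma adjusted p of 0.00564 against Con and 0.118 against HMD. Mir7220 had 0.0609 against Con and 0.000477 against HMD. Mir7-1 and Mir103-2 were called higher than in Con (limma adjusted p 0.0479 and 0.01), and Mir132 and Mir212 were not (0.65 and 0.275). Passing against 1 group alone does not show that Con and HMD differed, and no miRNA gene was called between those groups.

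The comparison of HMD with Con asks what the diet alone changed. None of the 50 miRNA genes tested was called, and none of all 13004 genes was (0% in limma). Before adjustment, 588 genes had a p under 0.05 in limma, 8 of them miRNA genes, as did 1 miRNA gene in limma voom on the reads, which called none. The median log2 difference was -0.00. The groups did not overlap at Mir1957a and Mir744, which were higher in HMD, and at Gm27686, which was lower, where 4.71% of all genes did not overlap upward and 4.9% downward. Mir1957a, in the glucose transporter gene Slc2a1, had no read in Con and 1, 1 and 5 in HMD (limma adjusted p 0.956). The intergenic Gm27686 had 1, 5 and 4 reads in Con and none in HMD (limma adjusted p 0.75). Mir684-1, Gm24187 and Mir7651 completed the smallest p-values in each direction, with reads of 0, 1 and 2 against 2, 8 and 5, of 1, 3 and 1 against 1, 0 and 0, and of 4, 4 and 0 against none.

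The genes that make and use miRNAs were read from a list of 27, of which 25 were tested. Lin28a had no read, and Lin28b lay under 1 FPKM. In Bet+HMD against HMD 17 were called higher and 2 lower, and in Bet+HMD against Con 14 and 2, with medians of 0.49 and 0.37 in log2(FPKM + 1). The shares of all genes called were 22.8% and 25.5%, and 19.4% and 20.4%. The list was written with earlier results of these data known, so nothing was read from its counts beside these shares. None was called in HMD against Con, and none had an unadjusted p under 0.05 there.

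All 7 genes of nuclear processing were called higher than in HMD. Against Con, all but Hnrnpa1 were called higher (limma adjusted p 0.0573 for Hnrnpa1). Srrt, which passes primary transcripts to Drosha, had 6.63 ± 0.62 FPKM in the HMD libraries and 23.8 ± 1.1 FPKM in those of Bet+HMD (SD, n = 3), a log2 difference of 1.70 (SE 0.083, limma adjusted p 3.1e-05). The helicase genes Ddx17 and Ddx5 differed by 1.12 and 0.63, and the hairpin-binding factors Hnrnpa1 and Khsrp by 0.98 and 0.67. Drosha went from 15.3 ± 1.1 to 20.8 ± 0.18 FPKM (log2 difference 0.42, limma adjusted p 0.00304) and Dgcr8 from 3.03 ± 0.30 to 4.96 ± 0.079 (0.57, limma adjusted p 0.00167).

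Export and dicing did not move together. Ran, the GTPase that drives nuclear export, fell by 0.92 (limma adjusted p 0.000159), while Xpo5, the hairpin exporter, differed by -0.12 (limma adjusted p 0.201). Prkra, a Dicer partner, fell by 0.83, and Tarbp2, another, rose by 0.63. Dicer1 differed by 0.22 (limma adjusted p 0.117). In the silencing complex, Ago3 and Ago4 and the scaffold genes Tnrc6a, Tnrc6b and Tnrc6c were called higher, with log2 differences of 0.81, 0.47, 0.85, 0.49 and 0.80. Ago1 and Ago2 differed by 0.10 and 0.22 and did not pass the test. Of the genes that modify or degrade miRNAs, Tut4, Tut7, Xrn2 and Adar were called higher, and Dis3l2 and Adarb1 were not called. All calls of this paragraph are those against HMD. Against Con, Dicer1 was called higher (log2 difference 0.36, limma adjusted p 0.0156). Tarbp2, Ago4 and Xrn2 were not called against Con (limma adjusted p 0.115, 0.0534 and 0.844).

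**Figure D5:**
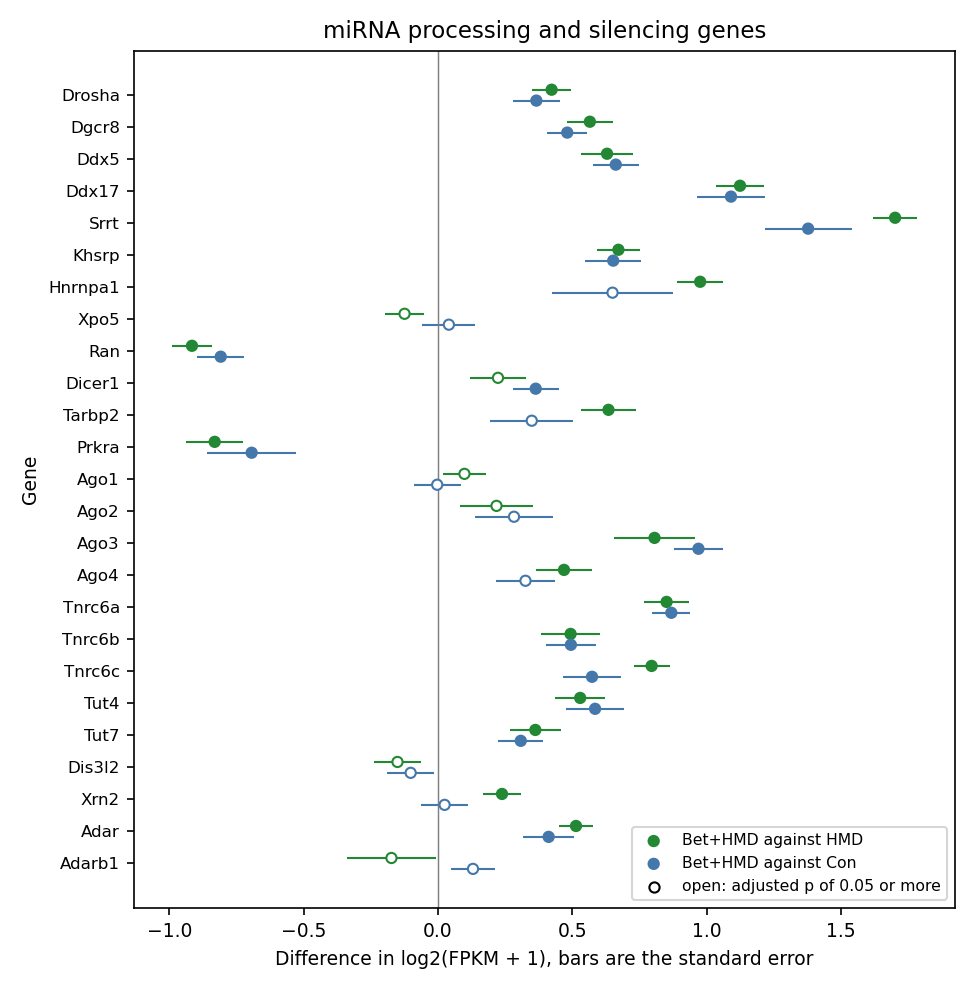
Difference in log2(FPKM + 1) of 25 miRNA processing and silencing genes (vertical axis, grouped by step from Drosha at the top) in Bet+HMD against HMD and against Con. Bars are the standard error, and open points did not reach an adjusted p under 0.05. Srrt lies farthest to the right at 1.70 against HMD, and Ran and Prkra lie to the left of 0 in both comparisons.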

How the data were processed

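Ribosomal RNA was depleted from hippocampal total RNA, and stranded paired-end libraries were sequenced. Per the submitters' processing notes the tools were HISAT2 2.1.0 and featureCounts 1.5.0-p3 on mm10; the study's methods name other versions. The authors deposited FPKM per gene in 2 tables, with each gene's length in bases and position (another unit, used as given). The later table, with all 9 libraries, was used throughout. Columns headed COL were taken as Con by inference. FPKM times length and library size gave whole reads (within 0.01) for 100% of values, 16031464 to 18291952 per library. Nothing says whether replicates were separate animals, so p-values measure the spread between these libraries. The Bet+HMD libraries lay closer to one another than those of Con or HMD. Chi-square per degree of freedom between 2 libraries was 3.00 to 4.21 in Bet+HMD. It was 22.8 to 42.2 in Con and 11.8 to 22.2 in HMD. The part of this in the p-values was not tested.

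The members and lists were chosen with earlier results of these data known. A host was a gene of another biotype containing the miRNA gene on its strand. All 98 genes had the same position in GENCODE M21. limma 3.58.1 (R 4.3.3) with an intensity trend was fitted to log2(FPKM + 1) for each pair of groups over all genes with a mean of at least 1 FPKM. A fold change on this scale understates that of low genes. The deposited values are not counts, so no count test was the main one. The test was tried on simulated data. Near-identical copies came from blastn 2.17.0 and fold energies from RNAfold 2.7.2. Named were the 10 genes highest in FPKM or reads, the 5 largest called rises and falls with 10 reads in the higher group (or the 3 smallest p in each direction), the 3 genes on each side of the rule, and brain families. Alternatives changed the pseudocount, filter, scaling, test, samples, table and replicate block.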

Additional observations from a re-analysis of the deposited data

How the results depend on the processing

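Most counts kept their direction and lay within 1.5 times the value given under pseudocount 0.1, no filter, TPM, median centring, quantile normalization, voom on the reads, all 3 groups in one fit, no trend and, for HMD against Con, the earlier table. A filter at 5 FPKM left 24 called in Bet+HMD against HMD and 24 against Con, and a filter at 10 reads left 14 and 15, because fewer genes were tested. The median log2 difference of the miRNA genes, 1.80 and 1.81 as reported, was 3.59 and 3.34 with pseudocount 0.1, 2.59 and 2.45 under voom, 3.00 and 2.78 in TPM, and lowest at 1.53 and 1.64 after quantile normalization. Leaving out 1 library gave 56 to 62 and 47 to 60, and 0 to 1 in HMD against Con. That 1 was Mir3060, lower in HMD without Con replicate 2 (limma adjusted p 0.0312). For the processing genes leaving out 1 library gave 17 to 21, 11 to 18 and 0.

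Mir421 against Con also lost its call with pseudocount 0.1 (limma adjusted p 0.0579) and no filter (0.0551), and the cause was not tested. Directions were followed for the named largest called differences and for the named smallest p-values of HMD against Con. None of these reversed in any alternative run that tested the gene. Same-numbered libraries correlated at -0.151 to 0.0171 in Bet+HMD against HMD and at -0.176 to -0.0489 in Bet+HMD against Con. There 1 and 0 of 6 libraries correlated best with their own number, so the numbers did not pair them. In HMD against Con the correlations were -0.0581, 0.337 and 0.320 for replicates 1, 2 and 3. There 4 of 6 libraries correlated best with their own number, and whether the numbers paired these libraries was not settled. With the replicate block 67, 60 and 0 miRNA genes and 18, 13 and 0 processing genes were called.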
